A study of Rattus norvegicus with 26 samples.

Results

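The change that the injured rat spinal cord underwent without cell treatment was followed from the subacute phase, day 7 after spinal cord injury (SCI), to day 35. The comparison took 7 of the series' 26 poly(A) RNA-seq libraries, chosen by their labels, 3 of sub-SCI and 4 of +PBS-4w. Of the 32883 genes in the count table, it covered the 17990 that passed the expression filter. The rats of both groups were wild type adult female Sprague-Dawley animals, labelled as postnatal day 70, whose cord was compressed with an aneurysm clip of 60 g for 1 min at T10. Sub-SCI rats were taken on day 7, at 0 weeks, whereas +PBS-4w rats received phosphate-buffered saline (PBS) into the lumbar intrathecal space on day 7 and were taken 4 weeks later. According to the methods, the rats were given cyclosporin A, which blocks T cell activation, every day of the experiment. Each library was made from a 5 mm segment around the lesion. The methods call the libraries of a condition biological replicates, and the labels do not tie them to single rats. The p-values rest on the spread between libraries, which the test pooled over all 8 groups of the series. The days since injury, the PBS injection, the age at sampling and the days on cyclosporin A therefore differed together between the groups and cannot be told apart. Libraries of Intact cords (n = 4) and of vehicle rats at 1 and 2 weeks, +PBS-1w (n = 3, day 14) and +PBS-2w (n = 2, day 21), served to place the levels.

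In the first week after compression, macrophages and lymphocytes enter the cord, and microglia, astrocytes, fibroblasts and other resident cells divide. Over the following weeks, division subsides and a scar of fibroblast matrix bordered by reactive astrocytes remains around the cavity. Neurons of the adult cord do not divide. The ependymal cells that line the central canal carry motile cilia, and Schwann cells from the nerve roots can enter the injured cord and myelinate axons there. In bulk tissue such as these segments, fewer cells of a type and less RNA per cell cannot be told apart.

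The 7 libraries held between 21327390 and 35403139 counts. In the text, CPM is a gene's count scaled to the TMM-adjusted size of its library, log2 fold changes are +PBS-4w minus sub-SCI with their standard error, and adjusted p is the Benjamini-Hochberg value of the quasi-likelihood test in edgeR. A gene rose or fell where adjusted p was under 0.05, and was a DEG where the absolute log2 fold change was also above 1 and adjusted p was under 0.01. The defining markers of spinal cord were present in every library, with Mbp, a myelin protein, at 8695 to 21991 CPM and Gfap, the astrocyte filament, at 3680.2 to 15222 CPM. One library of each group stood apart. In +PBS-4w replicate 1, neuron markers averaged 7.94 log2 CPM against 6.17 to 6.61 in the other +PBS-4w libraries, and fibroblast and scar matrix genes 6.06 against 7.64 to 7.96. In sub-SCI replicate 3, neuron markers averaged 4.87 log2 CPM against 6.37 and 6.59, and scar matrix genes 9.37 against 8.11 and 8.28. Both lists are therefore given below with and without these libraries. The part of segment position in these differences was not tested. The +PBS-4w libraries varied more among themselves than the other groups, with a median SD per gene of 0.387 log2 CPM against 0.23 in sub-SCI and 0.175 in Intact, and the test pooled the spread over all 8 groups.

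Between day 7 and day 35, 770 genes were DEGs higher in +PBS-4w and 555 were DEGs lower, or 4.28% and 3.09% of the genes tested. At adjusted p under 0.05 alone, 2418 genes (13.4%) rose and 2093 (11.6%) fell, and in 2241 (12.5%) and 2480 (13.8%) the +PBS-4w libraries lay wholly above or wholly below those of sub-SCI. Genes named below were mostly picked for a small p in this comparison, which favors groups that do not overlap. Where such separation is stated, it describes the values and is no further support. The median log2 fold change over all genes was 0.06. The size of the count depended on the spread that was assumed, since edgeR on the 7 libraries alone called 51 higher and 184 lower DEGs, while DESeq2 on the same libraries called 722 and 625. Without sub-SCI replicate 3 the DEGs numbered 354 higher and 361 lower. Of the 138 genes named in the text that passed adjusted p under 0.05, 98 kept that call in each of 17 other settings that gave them a value, and 12 lost it only with edgeR on the 7 libraries alone. The plot of all genes rings 12 members of both directions, from Ifit1 at 6.58 to Tnc at -4.15.

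**Figure D1:**
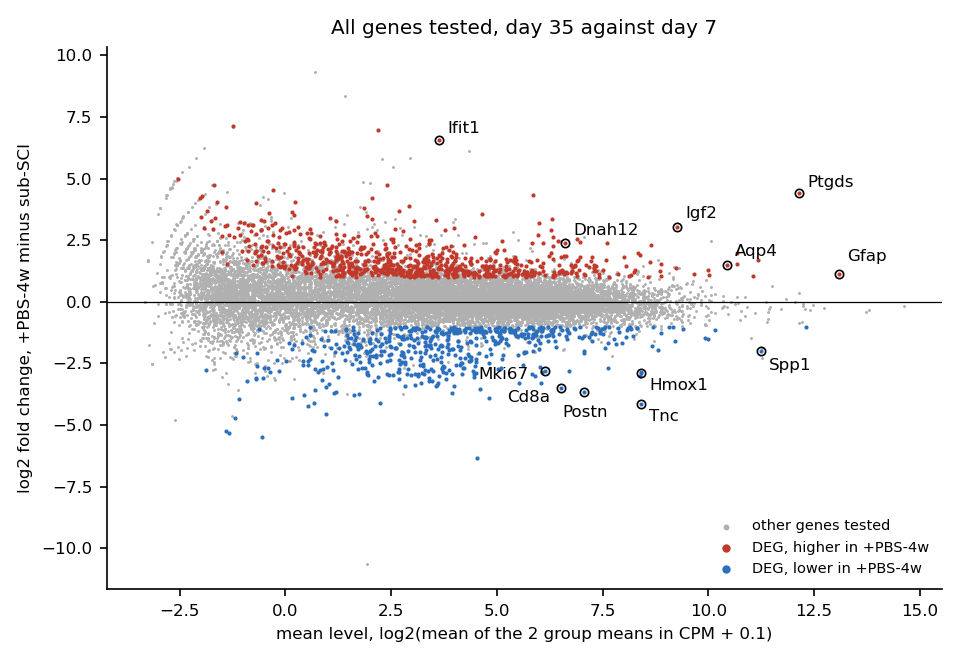
Log2 fold change of +PBS-4w minus sub-SCI (vertical axis) against mean level (horizontal axis, log2 of the mean CPM of both groups plus 0.1) for the 17990 genes tested. Red points are the 770 DEGs higher in +PBS-4w, blue points the 555 DEGs lower, and 12 genes named in the text are ringed.

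The genes with the smallest p among the higher DEGs included several known from astrocytes and from energy metabolism. Pygb, the brain form of glycogen phosphorylase, stood at 159, 139 and 140.1 CPM in the sub-SCI libraries and at 346, 304, 310.1 and 326 CPM in +PBS-4w (log2 fold change 1.14 ± 0.0997, adjusted p = 4.82e-07). Pygm, the muscle form of the same enzyme, stood at 71.9, 58.4 and 39.3 CPM in sub-SCI and 177, 152, 162 and 151 CPM in +PBS-4w (1.50 ± 0.169, adjusted p = 3.81e-06). For both phosphorylases, the lowest +PBS-4w library lay above the highest sub-SCI library. Clu, the secreted chaperone clusterin, went from 1120.4, 1026 and 1166 to 4204, 3087, 3195 and 3709.8 CPM (3.21-fold, adjusted p = 1.64e-06). Maob, the monoamine oxidase of astrocytes, was 2.3-fold higher, Acacb, an acetyl-CoA carboxylase, 3.35-fold, and Aldh6a1, an enzyme of valine breakdown, 2.22-fold (adjusted p = 2.35e-06, 3.58e-06 and 2.28e-06). Ppp1r1b, which encodes the phosphatase inhibitor DARPP-32, rose 7.55-fold from 22.7, 21.1 and 11.1 to 195, 103, 155 and 98.3 CPM (adjusted p = 2.45e-06). Also in this group were Fam151a, Itm2c and Nkain4, with log2 fold changes of 1.34, 1.12 and 1.36, and Cfap57, a motile cilia gene described below. The levels of these genes on day 35 stood on either side of Intact. Clu was at 3549 ± 514 CPM (SD, n = 4) against 1221 ± 58.1 in Intact (n = 4), while Pygb was at 322 ± 19 against 534 ± 34 (adjusted p = 7.61e-08 and 1.05e-06 for +PBS-4w against Intact).

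Among the lower DEGs, the 12 with the smallest p included genes of cell division, of the cell surface, of lysosomes and of heme breakdown. Sdc1, the heparan sulfate proteoglycan syndecan-1, stood at 78.9, 111 and 129.6 CPM in sub-SCI and at 11.4, 11.4, 16.3 and 14.2 CPM in +PBS-4w (log2 fold change -3.00 ± 0.237, adjusted p = 3.82e-07), against 3.76 ± 1.45 in Intact. Ninj1, a membrane protein that takes part in plasma membrane rupture, fell from 178, 203 and 186 to 75.7, 59, 73.4 and 67.6 CPM (-1.46 ± 0.121, adjusted p = 4.62e-07). Ttyh3, Ckap4 and Tfrc, the transferrin receptor, were 2.02-, 3.6- and 3.04-fold lower (adjusted p = 4.82e-07, 9.49e-07 and 1.43e-06). In each of these 5 genes the groups did not overlap, beside 13.8% of all genes tested with +PBS-4w wholly lower.

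Cell division genes fell as a group. Of 30 members tested, 29 fell and 0 rose, against 11.6% of all genes that fell, and the median log2 fold change was -2.52. Mki67, the proliferation antigen Ki-67, stood at 85.7, 109.6 and 174 CPM in the sub-SCI libraries and at 12.6, 14.1, 18.1 and 25.5 CPM in +PBS-4w (log2 fold change -2.81 ± 0.385, adjusted p = 2.93e-05). Each +PBS-4w library lay below each sub-SCI library. Ccnb1, the mitotic cyclin B1, went from 19.3, 22.2 and 39.8 to 4.02, 2.82, 3 and 4.45 CPM (-2.92 ± 0.263, adjusted p = 4.82e-07), and its kinase partner Cdk1 from 32.4, 31.3 and 55.4 to 7.6, 3.18, 4.74 and 5.64 CPM (-2.91 ± 0.402, adjusted p = 3.10e-05). Rrm2, the ribonucleotide reductase subunit made for DNA synthesis, fell 10.5-fold, Ube2c, an enzyme of mitotic exit, 8.82-fold, and Bub1, a checkpoint kinase, 6.45-fold (adjusted p = 1.46e-06, 2.13e-05 and 1.53e-06). The helicase subunits Mcm2 to Mcm7, which license replication origins, had log2 fold changes from -2.08 for Mcm5 to -0.53 for Mcm7. Aurkb, a mitotic kinase, was the member that did not pass. Its +PBS-4w replicate 1 held 82.9 CPM against 12.7, 12.6 and 13.6 CPM in the others and 30.3, 43.4 and 46.1 CPM in sub-SCI (adjusted p = 0.752). The members of this list called without sub-SCI replicate 3 numbered 25, and edgeR on the 7 libraries alone called 23. The calls of Mcm7 (adjusted p = 0.0562), Pcna (0.0869), Tyms (0.0569) and Ccne2 (0.141) were the ones lost without sub-SCI replicate 3, and that of Ccne2 was also lost on leaving out any other library but +PBS-4w replicate 1 (0.0552 to 0.141 over the 6).

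Dsn1, a kinetochore protein, Stil, needed to duplicate centrioles, Aspm, a spindle pole protein, and Ncapd2, a condensin subunit, lie outside that list and were among the 12 lower DEGs with the smallest p, with log2 fold changes of -2.23, -2.37, -2.28 and -1.18. Sgo2, which protects centromeric cohesion, was 13.5-fold lower, at 4.07, 5.22 and 8.78 CPM in sub-SCI and 0.596, 0.388, 0.358 and 0.413 CPM in +PBS-4w (adjusted p = 3.58e-06). Of the 16 centromere protein genes (Cenp) that the list does not hold, 11 fell and 0 rose, and of the 6 condensin genes (Ncap), 5 fell and 0 rose, beside 11.6% of all genes that fell. Both families were chosen after their values were seen. On day 35, 21 of the 30 cell division list members were higher than in Intact and 2 lower, beside 28.6% and 23.9% of all genes. Their median log2 fold change against Intact was 0.85. The log2 fold change of +PBS-4w against Intact was 0.24 for Ccnb1 (adjusted p = 0.445), 0.65 for Mki67 (0.133), 1.38 for Top2a, the DNA topoisomerase of dividing cells (0.0068), and 1.55 for Cdk1 (0.00243).

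The promoters of these genes are shown because the genes moved together. Cell cycle promoters are known to carry CCAAT boxes, bound by NF-Y, and CHR elements, through which complexes of the MuvB core repress or activate them. The sequences are from RefSeq's GRCr8 assembly of the rat genome, the 150 bases before the gene start on its own strand, with CCAAT boxes (CCAAT or its reverse ATTGG) and CHR elements (TTTGAA, the related form TTCGAA, and their reverses) in capitals. They are the 3 members with the smallest p that hold both elements in this window, chosen after their values were seen.
Cdc20 (chr5:137255800-137255949, minus strand): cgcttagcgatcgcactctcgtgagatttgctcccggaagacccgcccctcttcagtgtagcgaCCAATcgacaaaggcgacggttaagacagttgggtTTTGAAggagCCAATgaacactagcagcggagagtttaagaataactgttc
Mki67 (chr1:199952594-199952743, minus strand): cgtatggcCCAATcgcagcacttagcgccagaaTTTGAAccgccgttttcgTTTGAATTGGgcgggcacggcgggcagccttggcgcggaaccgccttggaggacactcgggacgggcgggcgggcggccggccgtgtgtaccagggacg
Cdk1 (chr20:19265143-19265292, plus strand): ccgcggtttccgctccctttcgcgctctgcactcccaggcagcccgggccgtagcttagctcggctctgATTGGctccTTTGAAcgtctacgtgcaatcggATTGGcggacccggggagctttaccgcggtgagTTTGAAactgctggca
Cdc20, the activator of the anaphase-promoting complex, fell 6.95-fold beside Mki67 and Cdk1 (adjusted p = 4.86e-06). In the Mki67 promoter one CHR element overlaps a reversed CCAAT box by 1 base. RefSeq promoters were matched for 23 of the 30 members. Over 250 bases before the start, 17 of the 23 (73.9%) held a CCAAT box and 9 (39.1%) a CHR element on either strand, against 34.0% and 17.4% of all 33469 promoters of the same length. Those promoters were not limited to the genes tested here, and a link of the motifs to the fall was not tested. Ccnb1 held 2 CCAAT boxes and no CHR element in its window, and Bub1 held neither.

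Motile cilia genes rose as a group. Of 10 ependymal and motile cilia genes tested, 8 rose and 0 fell, against 13.4% of all genes that rose, and the median log2 fold change was 2.22. Cfap43, a protein of the ciliary axoneme, stood at 3.63, 3.62 and 1.29 CPM in sub-SCI and at 8.46, 20.3, 11.8 and 15.3 CPM in +PBS-4w (log2 fold change 2.29 ± 0.339, adjusted p = 5.99e-05). Ccdc153 and Tmem212, both marker genes of ependymal cells, stood at 1.1, 1.67 and 0.407 and at 1.37, 1.23 and 0.339 CPM in sub-SCI and at 6.78, 9.67, 5.32 and 7.66 and at 4.14, 7.41, 4.21 and 5.32 CPM in +PBS-4w (adjusted p = 9.55e-05 and 2.78e-04). In all 3 genes, the lowest +PBS-4w library exceeded the highest sub-SCI library. Hydin, of the central pair of microtubules, went from 5.12, 7.5 and 1.97 to 7.83, 36.3, 21.5 and 26.1 CPM (2.24 ± 0.397, adjusted p = 3.55e-04), and Rsph1, of the radial spokes, from 2.01, 1.99 and 1.15 to 6.71, 4.62, 2.86 and 3.95 CPM (1.40 ± 0.35, adjusted p = 0.00576). Dnah5, a dynein heavy chain, stood at 0.969 CPM in +PBS-4w replicate 1 and at 12.3, 8.9 and 12.4 CPM in the others, against 4.13, 4.68 and 2.58 CPM in sub-SCI, and did not pass (adjusted p = 0.0879). Without +PBS-4w replicate 1, 9 members rose, without sub-SCI replicate 3, 8, and with edgeR on the 7 libraries alone, 5, the calls of Rsph1, Dnah11 and Hydin being lost (adjusted p = 0.058, 0.0543 and 0.0539).

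The larger families of ciliary genes were taken by their symbols after the values were seen. Of 10 axonemal dynein heavy chains (Dnah), the motors that make cilia beat, 7 rose and 1 fell. Dnah12 went from 42.1, 29.3 and 24.1 to 81.9, 175, 178 and 223 CPM (log2 fold change 2.37 ± 0.336, adjusted p = 4.03e-05) and Dnah9 from 7.21, 9.9 and 4.75 to 15.9, 30.6, 24.3 and 30.9 CPM (1.80 ± 0.221, adjusted p = 9.59e-06). The one that fell was Dnah17, known from sperm tails, at 7.32, 7.58 and 9.36 CPM in sub-SCI and 2.2, 5.36, 3.94 and 4.36 CPM in +PBS-4w (-1.03 ± 0.365, adjusted p = 0.043), a call lost on leaving out any library but +PBS-4w replicate 2, with adjusted p of 0.0628 to 0.148. Of 25 genes named Cfap (cilia and flagella associated proteins), 19 rose and 0 fell, with a median log2 fold change of 1.15, and Cfap57 stood at 1.05, 0.58 and 0.339 CPM in sub-SCI against 3.99, 5.08, 3.8 and 4.5 CPM in +PBS-4w (2.71 ± 0.304, adjusted p = 3.86e-06). All 6 radial spoke head genes (Rsph) rose. Without the members that the lists already held, 6 of 8 Dnah, 18 of 24 Cfap and 5 of 5 Rsph genes rose, beside 13.4% of all genes. With edgeR on the 7 libraries alone, 4 Dnah, 15 Cfap and 3 Rsph genes of the whole families rose. The intraflagellar transport genes (Ift), which build both motile and primary cilia, had 5 of 13 higher, 0 lower and a median of 0.28, and 2 higher with edgeR on the 7 libraries alone. On day 35, 7 of the 10 ependymal list members were higher than in Intact and 0 lower, beside 28.6% and 23.9% of all genes. The mean of Cfap43 was 14 CPM in +PBS-4w against 2.85 in sub-SCI and 7.29 ± 0.673 in Intact, and that of Dnah9 was 25.4, 7.28 and 29.8 ± 2.7.

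Promoters of motile cilia genes are known to carry X-boxes, the sites of RFX factors. The window of 250 bases was searched on both strands for GTNNCC followed, 3 bases on, by GNAAC, in which N is any base. Of the 42 tested genes of the ependymal list and of the Dnah and Cfap families, 34 had a matched promoter, and 5 (14.7%) of these held the motif, against 1.6% of all promoters and 0 of the 23 cell division promoters. Here too, all promoters were not limited to the genes tested, and a link of the motif to the rise was not tested. The 3 with the smallest p are shown over the last 150 bases before the start (GRCr8, RefSeq), with the motif in capitals on whichever strand it lies.
Dnah12 (chr16:1944602-1944751, plus strand): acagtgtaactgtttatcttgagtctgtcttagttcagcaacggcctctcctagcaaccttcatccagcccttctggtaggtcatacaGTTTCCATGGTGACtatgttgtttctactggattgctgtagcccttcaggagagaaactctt
Dnah2 (chr10:54766027-54766176, minus strand): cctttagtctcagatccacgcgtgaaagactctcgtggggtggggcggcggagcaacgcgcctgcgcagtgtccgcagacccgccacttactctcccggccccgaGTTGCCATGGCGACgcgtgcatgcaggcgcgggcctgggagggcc
Hydin (chr19:55146316-55146465, plus strand): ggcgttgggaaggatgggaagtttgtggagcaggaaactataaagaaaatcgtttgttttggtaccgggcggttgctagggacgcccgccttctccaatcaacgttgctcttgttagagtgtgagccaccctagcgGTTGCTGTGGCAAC
Dnah2, an inner arm dynein, stood at 4.27, 4.64 and 2.81 CPM in sub-SCI and 7.04, 17.8, 11.1 and 14.6 CPM in +PBS-4w (adjusted p = 2.64e-04).

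Of 14 astrocyte homeostasis genes, 9 rose and 0 fell (13.4% of all genes rose), with a median log2 fold change of 1.07, and 4 rose with edgeR on the 7 libraries alone. Gjb6, the gap junction protein connexin 30, stood at 19.7, 16.3 and 18 CPM in sub-SCI and at 68.2, 138, 88.3 and 86.2 CPM in +PBS-4w (2.40 ± 0.325, adjusted p = 2.56e-05). Aqp4, the water channel of astrocyte endfeet, went from 909.6, 820.3 and 431 to 1782, 2119.7, 1942 and 2376 CPM (1.51 ± 0.254, adjusted p = 2.22e-04), and Aldh1l1, a folate enzyme used as an astrocyte marker, from 35, 20.5 and 17.5 to 56.8, 53, 40.5 and 61.1 CPM (1.12 ± 0.215, adjusted p = 7.40e-04). The groups did not overlap in any of these. Slc4a4, a bicarbonate transporter, was higher in 3 of the +PBS-4w libraries, at 295, 255 and 303 CPM, than in sub-SCI, at 94, 68.2 and 103 CPM, and lower in replicate 1, at 54.6 CPM (1.36 ± 0.351, adjusted p = 0.00723). The glutamate transporter Slc1a2 showed the same order, at 41.3, 30.7 and 21.8 CPM against 21.4, 73.8, 99.2 and 99.1 CPM, and its call (adjusted p = 0.0236) was lost without sub-SCI replicate 2 or 3 or +PBS-4w replicate 3 or 4 (0.0648, 0.125, 0.0661 and 0.067). Glul, glutamine synthetase, stood at 2594, 2524 and 2829 CPM in sub-SCI and at 2298, 2802, 2909 and 2608 CPM in +PBS-4w (0.00 ± 0.108, adjusted p = 0.989), and Kcnj10, the inward rectifier potassium channel, at 68.3, 49.2 and 42 CPM in sub-SCI and 25.9, 60.1, 68 and 71.8 CPM in +PBS-4w (0.08 ± 0.278, adjusted p = 0.859). Kcnj10 remained below Intact on day 35 (56.4 ± 21 against 238 ± 30.3 CPM, adjusted p = 1.72e-06).

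The reactive astrocyte genes did not move as one group. Of 14 tested, 2 rose and 3 fell, beside 13.4% and 11.6% of all genes, with a median log2 fold change of -0.32. Without sub-SCI replicate 3 or with edgeR on the 7 libraries alone, 0 rose. Gfap rose from 7919, 4611 and 3680.2 to 15222, 9539, 9373 and 13624 CPM (1.14 ± 0.289, adjusted p = 0.00621, and 0.0519 without sub-SCI replicate 3). Nes, the progenitor filament nestin, fell from 68.5, 58.5 and 76.4 to 36.7, 26.8, 20.0 and 26.7 CPM (-1.30 ± 0.196, adjusted p = 7.52e-05), and Timp1, a metalloprotease inhibitor, from 213, 213 and 353 to 102, 104, 103 and 114 CPM (-1.30 ± 0.284, adjusted p = 0.00213). The other member that fell was Tnc, described below with the scar matrix, which had the largest fold of this list (-4.15 ± 0.515, adjusted p = 1.07e-05). Vim, the filament vimentin that many non-neuronal cells share, stood at 3412, 2716 and 5072 CPM in sub-SCI and at 2274, 3279, 3427 and 3244 CPM in +PBS-4w, with overlapping groups (adjusted p = 0.544). Vim and Gfap both remained above Intact on day 35, with log2 fold changes of 3.47 and 1.48 against it (adjusted p = 3.56e-08 and 9.08e-05).

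**Figure D2:**
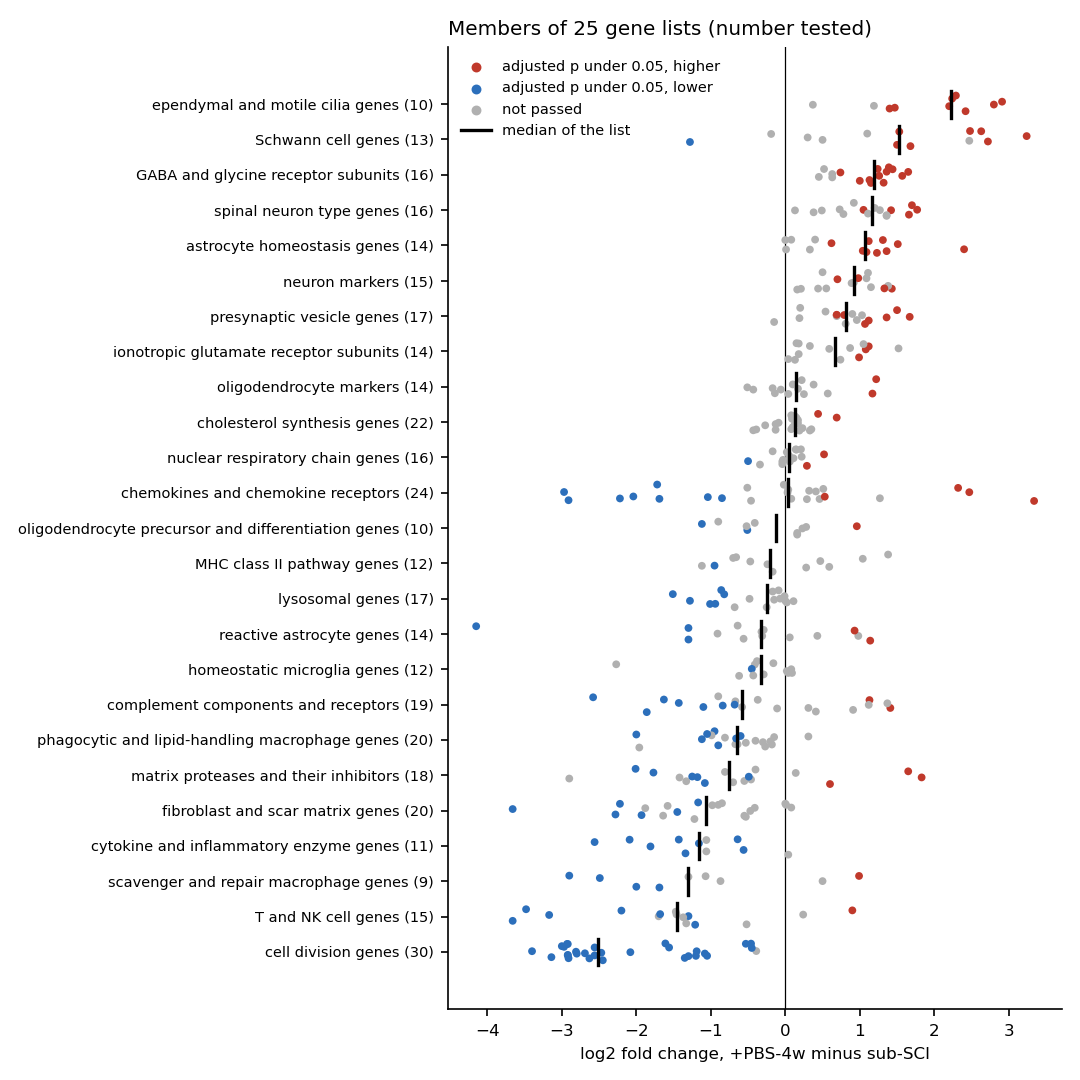
Log2 fold change of +PBS-4w minus sub-SCI (horizontal axis) for each member of 25 gene lists, one list per row with the number tested, ordered by the median (black bar). Red and blue points passed adjusted p under 0.05 upward and downward and gray points did not. Ependymal and motile cilia genes have the highest median (2.22) and cell division genes the lowest (-2.52).

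The genes of macrophages fell in part. Of 20 phagocytic and lipid-handling macrophage genes, 7 fell and 0 rose (11.6% of all genes fell), with a median log2 fold change of -0.65, and 4 fell with edgeR on the 7 libraries alone. Plin2, which coats lipid droplets, stood at 305, 319 and 318 CPM in sub-SCI and at 158, 110.4, 175 and 163 CPM in +PBS-4w (-1.05 ± 0.183, adjusted p = 3.06e-04). Cd68, a lysosomal membrane protein of macrophages, went from 547, 702 and 689 to 286, 219.7, 417 and 265 CPM (-1.12 ± 0.317, adjusted p = 0.0129), and Spp1, osteopontin, from 2423, 4099.9 and 5102 to 2083, 366, 1095 and 323 CPM (4.01-fold lower, adjusted p = 0.00414). In Spp1 the +PBS-4w libraries spread over a wide range but stayed below the lowest sub-SCI library. Apoe, the lipid carrier, stood at 30360.4, 26767 and 23697 CPM in sub-SCI and 32014, 16556, 26304 and 20547 CPM in +PBS-4w (-0.18 ± 0.223, adjusted p = 0.604), and Gpnmb, a marker of lipid-laden macrophages, at 5467, 6165 and 6614 CPM in sub-SCI and 2682, 2533, 5378 and 3293 CPM in +PBS-4w (-0.81 ± 0.324, adjusted p = 0.0713). Against Intact all 20 remained higher on day 35, beside 28.6% of all genes. Gpnmb was then at 3472 ± 1313 CPM (n = 4) where Intact had 25.3 ± 7.42 (adjusted p = 1.74e-10).

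Of 9 scavenger and repair genes of macrophages, 4 fell and 1 rose, beside 11.6% and 13.4% of all genes. Their median log2 fold change was -1.30. Hmox1, heme oxygenase 1, stood at 522, 534 and 743 CPM in sub-SCI and at 88.9, 57.5, 94.8 and 80.1 CPM in +PBS-4w (log2 fold change -2.90 ± 0.251, adjusted p = 4.82e-07). Arg1, arginase 1, stood at 17.4, 29.8 and 44.2 CPM in sub-SCI and 9.39, 2.29, 4.7 and 5.23 CPM in +PBS-4w (-2.49 ± 0.36, adjusted p = 4.75e-05), Folr2, a folate receptor of tissue macrophages, at 215, 182 and 243 CPM in sub-SCI and 45.5, 42.8, 69.2 and 55.9 CPM in +PBS-4w (3.99-fold lower, adjusted p = 1.57e-04), and Stab1, a scavenger receptor, at 367, 229.6 and 316 CPM in sub-SCI and 33.8, 80.3, 159 and 104 CPM in +PBS-4w (-1.69 ± 0.365, adjusted p = 0.00194). In none of the 4 did the groups overlap. The mannose receptor Mrc1 overlapped, at 161, 166 and 215 CPM in sub-SCI and 48.5, 75.5, 194 and 77.7 CPM in +PBS-4w (adjusted p = 0.11), and so did Cd163, at 13, 11.9 and 24 CPM in sub-SCI and 6.78, 11.6, 44.8 and 29.3 CPM in +PBS-4w (adjusted p = 0.587). Chi3l1, a chitinase-like protein that astrocytes also make, rose from 83, 95.5 and 47.1 to 237, 84.5, 138 and 139 CPM (adjusted p = 0.026), a call lost without sub-SCI replicate 3 (0.155) or without +PBS-4w replicate 1 (0.0851).

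Of 17 lysosomal genes, 6 fell and 0 rose, beside 11.6% of all genes that fell. Ctsl, the protease cathepsin L, stood at 1264, 1415 and 1863 CPM in sub-SCI and at 461, 525, 603 and 540.0 CPM in +PBS-4w (-1.51 ± 0.133, adjusted p = 4.82e-07). Ctsz, Ctsb and Grn, the granulin precursor, were 2.42-, 2.01- and 1.91-fold lower (adjusted p = 3.66e-04, 3.08e-04 and 0.00144). Lamp1, the main lysosomal membrane protein, stood at 1536, 1477 and 1427 CPM in sub-SCI and 1729, 1262, 1446 and 1469 CPM in +PBS-4w, with overlapping groups (adjusted p = 0.988). Of 12 homeostatic microglia genes, 1 fell and 0 rose, a share near that of all genes, and none fell with edgeR on the 7 libraries alone. Tmem119, held to be specific to microglia, stood at 36.8, 72.2 and 48.7 CPM in sub-SCI and at 70.7, 42.7, 61.3 and 47.6 CPM in +PBS-4w (0.08 ± 0.234, adjusted p = 0.837). Of the iron and heme handling genes, 2 of 9 fell and 0 rose, again beside 11.6% of all genes. They were Tfrc, at 179, 269.8 and 239 CPM in sub-SCI and 81, 78.4, 67.8 and 74.8 CPM in +PBS-4w, and Hp, the hemoglobin-binding haptoglobin, at 13.3, 18.1 and 21.6 CPM in sub-SCI and 9.87, 4.02, 4.3 and 3.49 CPM in +PBS-4w (adjusted p = 1.43e-06 and 0.00859). On day 35 Tfrc was below Intact, which held 179 ± 10.7 CPM (log2 fold change -1.24, adjusted p = 8.56e-07).

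Of 11 cytokine and inflammatory enzyme genes tested, 8 fell and 0 rose, beside 11.6% of all genes that fell. Their median log2 fold change was -1.16. Lif, a cytokine of the interleukin-6 family, stood at 5.03, 5.26 and 10.4 CPM in sub-SCI and at 0.559, 1.69, 1.16 and 1.24 CPM in +PBS-4w (-2.56 ± 0.368, adjusted p = 4.47e-05). Osm, oncostatin M of the same family, went from 5.64, 6.67 and 5.93 to 2.24, 3.67, 2.28 and 2.66 CPM, and Il1rn, the interleukin-1 receptor antagonist, from 10.2, 16.5 and 33.9 to 6.52, 5.82, 5.68 and 5 CPM (adjusted p = 0.00398 and 0.0025). In each of the 3 the groups did not overlap. Il6 itself held under 1 CPM in every library (0.349, 0.689 and 0.576 in sub-SCI and 0, 0.176, 0.0895 and 0.229 in +PBS-4w), which rests on few reads (adjusted p = 0.0388). Its call was lost without sub-SCI replicate 2 or 3 or without +PBS-4w replicate 1 or 3 (0.0644 to 0.107). The members called numbered 5 without sub-SCI replicate 3, and 4 with edgeR on the 7 libraries alone.

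Of 24 chemokines and chemokine receptors, 8 fell and 4 rose, beside 11.6% and 13.4% of all genes, with a median log2 fold change of 0.04. Without sub-SCI replicate 3, 6 fell and 1 rose, and with edgeR on the 7 libraries alone, 8 fell and 2 rose. The monocyte attractants Ccl2 and Ccl7 stood at 15.9, 25.8 and 20.5 CPM and at 7.82, 17.6 and 15.7 CPM in sub-SCI, and at 3.76, 8.29, 2.77 and 5.28 CPM and at 1.53, 1.8, 1.83 and 1.84 CPM in +PBS-4w (-2.04 ± 0.453 and -2.97 ± 0.474, adjusted p = 0.00237 and 1.34e-04). Ccl5, which attracts T cells, and Cxcr3, a receptor of activated T cells, fell from 21.8, 16.3 and 11.3 to 2.35, 2.5, 2.33 and 1.56 CPM and from 6.28, 4.86 and 4.92 to 1.01, 1.59, 1.52 and 0.459 CPM (adjusted p = 4.47e-04 and 0.00515). In these 4 genes each +PBS-4w library was below each sub-SCI library. Ccl19, a lymphoid tissue chemokine, moved the other way, from 1.16, 0.834 and 0.543 to 5.96, 3.81, 3.85 and 5.28 CPM (2.47 ± 0.558, adjusted p = 0.00274). Ccl21, a ligand of the same receptor, was at 1.77, 0.942 and 0.441 CPM in sub-SCI and 3.09, 17.2, 4.16 and 18.6 CPM in +PBS-4w (3.34 ± 1.2, adjusted p = 0.0452), a call lost on leaving out any library but +PBS-4w replicate 1 or 3, with adjusted p of 0.0659 to 0.162.

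Of 15 T and NK cell genes, 7 fell and 1 rose, beside 11.6% and 13.4% of all genes, with a median log2 fold change of -1.46. In 11 the groups did not overlap with +PBS-4w lower, against 13.8% of all genes. Cd8a, a chain of the coreceptor CD8, stood at 178, 159 and 168 CPM in sub-SCI and at 20.0, 7.02, 13.4 and 20.0 CPM in +PBS-4w (log2 fold change -3.48 ± 0.383, adjusted p = 3.31e-06). Its partner chain Cd8b went from 33.4, 38.6 and 29 to 15.3, 8.78, 18.8 and 15.4 CPM (-1.21 ± 0.274, adjusted p = 0.00276). Prf1, the pore-forming perforin, went from 4.42, 4.42 and 3.42 to 0.186, 0.494, 0.358 and 0.229 CPM, and Gzmk, a granzyme, from 2.82, 4.1 and 2.44 to 0.522, 0.176, 0.582 and 0.0918 CPM (adjusted p = 5.51e-04 and 0.00307). The T cell receptor components Cd3d, Cd3e and Cd3g were low throughout, with 0.184 to 4.8 CPM, and did not pass (adjusted p = 0.0546, 0.158 and 0.135). These levels lay far below those of Cd8a in sub-SCI, and which cells held the Cd8a RNA was not tested. Cd4, which rat macrophages also carry, was at 145, 133 and 67.7 CPM in sub-SCI and 123, 140.2, 148 and 134 CPM in +PBS-4w (0.24 ± 0.321, adjusted p = 0.621). The one that rose was Foxp3, of regulatory T cells, at 1.66, 0.906 and 0.949 CPM in sub-SCI and 1.49, 2.22, 2.82 and 2.29 CPM in +PBS-4w (0.90 ± 0.309, adjusted p = 0.0361). That call was lost without sub-SCI replicate 2 or 3 or without +PBS-4w replicate 2, 3 or 4, with adjusted p of 0.0573 to 0.153.

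Of 19 complement components and receptors, 7 fell and 2 rose, beside 11.6% and 13.4% of all genes. Without +PBS-4w replicate 1, 7 fell and 5 rose. The anaphylatoxin receptor C5ar1 stood at 71.4, 87.2 and 92.1 CPM in sub-SCI and at 11.3, 14, 15.6 and 14.9 CPM in +PBS-4w (-2.58 ± 0.27, adjusted p = 2.28e-06), and Cfp, the properdin of the alternative pathway, at 105, 65.6 and 75.4 CPM in sub-SCI and 26.6, 26.1, 28.1 and 24.8 CPM in +PBS-4w (-1.63 ± 0.216, adjusted p = 2.06e-05). C4a, of the classical pathway, rose from 2.38, 2.21 and 2.2 to 6.04, 5.33, 7.11 and 5.6 CPM (1.41 ± 0.275, adjusted p = 8.50e-04), and it has a close copy in C4b, so the counting of reads between the pair is uncertain. C3, the central component, stood at 236, 248 and 56.3 CPM in sub-SCI and 236, 234, 219.9 and 206 CPM in +PBS-4w (0.31 ± 0.54, adjusted p = 0.713).

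The remaining immune lists are to be read beside the 13.4% of all genes that rose and the 11.6% that fell. Of 9 neutrophil and mast cell genes, 2 fell, Mmp8, neutrophil collagenase, from 118, 137 and 101 to 23.8, 3.32, 10.8 and 10.6 CPM and Csf3r, the receptor for G-CSF, from 63.7, 84.2 and 63.5 to 20.1, 21.4, 30.5 and 42.3 CPM (adjusted p = 0.00117 and 0.00363). Of 12 MHC class II pathway genes 1 fell, of 13 MHC class I pathway genes 2 rose, and of 11 B and plasma cell genes none passed. Their medians were -0.21, -0.06 and 0.85, and that of the B cell list was -0.17 without +PBS-4w replicate 1. None of the MHC class I genes rose without +PBS-4w replicate 1, without sub-SCI replicate 3 or with edgeR on the 7 libraries alone, and no MHC class II gene fell in the last of these. Among 19 interferon-stimulated genes 1 rose and 1 fell, and 1 rose and 2 fell with edgeR on the 7 libraries alone. The one that rose was Ifit1, which binds viral RNA, at 0.203, 0.254 and 0.305 CPM in sub-SCI and 41.9, 29.4, 26.4 and 0.413 CPM in +PBS-4w (6.58 ± 1.52, adjusted p = 0.00316). It was high in 3 of the 4 +PBS-4w libraries and near the sub-SCI level in replicate 4, and leaving out the replicate 1 libraries of all groups gave adjusted p = 0.0512. The remaining 17 of this list did not pass, with Isg15 at 20.4, 37.2 and 14.4 CPM in sub-SCI and 54, 27.4, 16.8 and 22.1 CPM in +PBS-4w (adjusted p = 0.577).

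**Figure D3:**
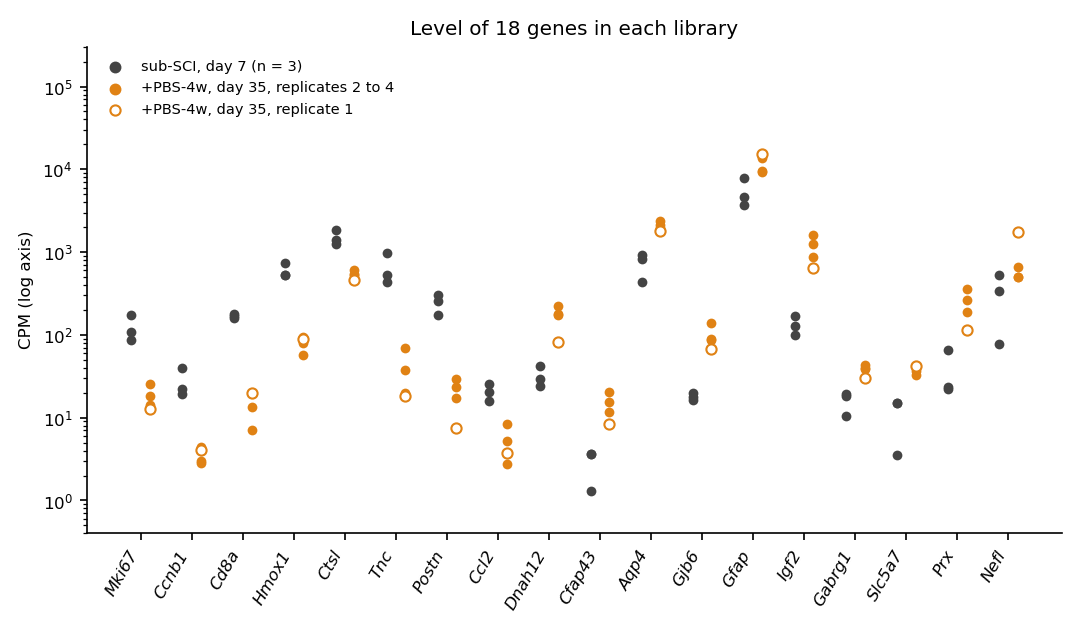
CPM on a log axis of 18 genes in each of the 7 libraries, with sub-SCI in gray (n = 3) and +PBS-4w in orange (n = 4, replicate 1 as open circles). The gray points lie above the orange ones in the first 8 genes and below them in the next 9, and in Nefl, at the right, the open circle (1745 CPM) stands above 3 orange points of 505 to 664 CPM.

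The matrix of the scar changed unevenly. Of 20 fibroblast and scar matrix genes, 6 fell and 0 rose, beside 11.6% of all genes that fell, with a median log2 fold change of -1.07. Postn, the matrix protein periostin, stood at 175, 256 and 306 CPM in sub-SCI and at 7.56, 23.7, 17.4 and 29.4 CPM in +PBS-4w (-3.66 ± 0.576, adjusted p = 1.14e-04). Col1a1, the main chain of fibrillar collagen I, went from 3022, 3215 and 6001 to 298, 1098, 831 and 1126 CPM (-2.28 ± 0.658, adjusted p = 0.0144), and Lox, which cross-links collagen, from 139, 234 and 674 to 17.6, 101, 116 and 64.7 CPM (-2.22 ± 0.68, adjusted p = 0.0204). The groups did not overlap in these 3, but sub-SCI replicate 3 was the highest and +PBS-4w replicate 1 the lowest library of each. Without sub-SCI replicate 3, 1 member fell and the median was -0.53, with Postn called and Col1a1 and Lox lost (adjusted p = 0.0776 and 0.219). Without +PBS-4w replicate 1, 4 fell and the median was -0.77. Dcn, the collagen-binding decorin, stood at 377, 385 and 761 CPM in sub-SCI and 211, 695, 678 and 567 CPM in +PBS-4w (0.08 ± 0.626, adjusted p = 0.94), and Acta2, the smooth muscle and myofibroblast actin, at 14.6, 15.8 and 39.4 CPM in sub-SCI and 25.4, 29.5, 22.5 and 16.1 CPM in +PBS-4w (adjusted p = 0.992).

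Matrix proteins known from wound repair had larger folds than any gene of that list. Tnc, tenascin C, stood at 435, 535 and 963 CPM in sub-SCI and at 18.2, 37.5, 20.1 and 69.1 CPM in +PBS-4w (log2 fold change -4.15 ± 0.515, adjusted p = 1.07e-05). Tnn, tenascin N, stood at 15.6, 36.5 and 84.2 CPM in sub-SCI and 0.335, 0.706, 0.224 and 0.963 CPM in +PBS-4w (-6.34 ± 0.905, adjusted p = 4.28e-05), and Cthrc1, a secreted collagen modifier, at 48.1, 47.8 and 62.4 CPM in sub-SCI and 1.71, 3.67, 3.8 and 4.77 CPM in +PBS-4w (-3.92 ± 0.483, adjusted p = 1.01e-05). These 3, with Sgo2 and the low transcription factor gene Foxr1 (3.69, 0.544 and 2.75 CPM against 0.112, 0.141, 0.0895 and 0.321 CPM, adjusted p = 5.96e-05), were the 5 lower DEGs with the largest fold among genes with a symbol of their own and a group mean of at least 1 CPM. Of 11 basement membrane genes, 2 fell and 0 rose, beside 11.6% of all genes that fell, and 1 rose without +PBS-4w replicate 1. They were the collagen IV chains Col4a1, from 616, 672 and 864 to 101, 232, 221 and 196 CPM, and Col4a2, from 331, 344 and 457 to 47.8, 149, 145 and 135 CPM (adjusted p = 2.07e-05 and 1.05e-04). The laminin chain Lamb2 held 273, 219 and 376 CPM in sub-SCI, 695, 538 and 549 CPM in 3 +PBS-4w libraries and 222 CPM in replicate 1 (adjusted p = 0.0707). Of all 43 collagen chains tested, taken by symbol after their values were seen, 9 fell and 4 rose, beside 11.6% and 13.4% of all genes. Their median was 0.01. Without +PBS-4w replicate 1, 7 fell and 9 rose, without sub-SCI replicate 3, 5 fell and 1 rose, and with edgeR on the 7 libraries alone, 8 fell and 1 rose.

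Of 14 chondroitin sulfate proteoglycans and link proteins, which limit axon growth, 3 fell and 0 rose, beside 11.6% and 13.4% of all genes. Without +PBS-4w replicate 1, 3 fell and 3 rose. Vcan, versican, stood at 269.8, 314 and 454 CPM in sub-SCI and at 71.7, 92.7, 132 and 119.6 CPM in +PBS-4w (-1.73 ± 0.211, adjusted p = 8.80e-06), and Ncan, neurocan, at 375, 194 and 198 CPM in sub-SCI and 59.6, 98.3, 123 and 137 CPM in +PBS-4w (-1.29 ± 0.353, adjusted p = 0.0102, and 0.0866 without sub-SCI replicate 1). Bcan, brevican, stood at 426, 277 and 161 CPM in sub-SCI and 429.7, 326, 349 and 387 CPM in +PBS-4w (adjusted p = 0.368), and Acan, aggrecan of perineuronal nets, at 4.3, 4.71 and 9.05 CPM in sub-SCI and 8.72, 4.27, 2.95 and 5.87 CPM in +PBS-4w (adjusted p = 0.754). Of 18 matrix proteases and inhibitors, 6 fell and 3 rose, beside the same shares of all genes. With edgeR on the 7 libraries alone, 6 fell and 1 rose. The plasminogen activator Plau fell from 71.5, 95.2 and 112 to 24.8, 23.7, 28.9 and 31.4 CPM (adjusted p = 0.00177). The metalloprotease Mmp19 fell 2.27-fold (adjusted p = 3.09e-04), while the inhibitors Timp3 and Timp4 rose 3.55- and 3.14-fold (adjusted p = 0.0047 and 2.84e-05). Timp3 stood at 85.1, 78.2 and 176 CPM in sub-SCI, at 522, 599 and 386 CPM in 3 +PBS-4w libraries and at 98.3 CPM in replicate 1.

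The vessel lists are to be read beside the 13.4% of all genes that rose and the 11.6% that fell. In them, 3 of 14 endothelial and barrier genes fell and 0 rose. Among those that fell were Tie1, a receptor kinase of endothelium, from 143, 155 and 178 to 69.4, 62.3, 81.1 and 79.7 CPM, and Esam, a junction protein, from 39.8, 44.5 and 51 to 27.5, 29.4, 23.5 and 15.3 CPM (adjusted p = 1.08e-04 and 9.70e-04). Cdh5, the endothelial cadherin, stood at 88.1, 94.3 and 169.8 CPM in sub-SCI and 45.3, 213, 144 and 147 CPM in +PBS-4w (adjusted p = 0.749). Of 7 pericyte genes 1 rose and 1 fell (0 fell without sub-SCI replicate 3), and the one that rose was Vtn, the plasma and matrix protein vitronectin, from 28.3, 18.5 and 18.4 to 104, 135, 121 and 95.8 CPM (2.39 ± 0.291, adjusted p = 8.88e-06).

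Of 15 neuron markers, 4 rose and 0 fell against 13.4% of all genes that rose, with a median log2 fold change of 0.92. Without +PBS-4w replicate 1 the median was 0.35 and 1 rose, without sub-SCI replicate 3 it was 0.60 and none rose, and none rose with edgeR on the 7 libraries alone. Nefl, the light neurofilament, stood at 336, 536 and 78.4 CPM in sub-SCI and at 1745, 505, 507 and 664 CPM in +PBS-4w (1.43 ± 0.492, adjusted p = 0.0371), with 0.157 without +PBS-4w replicate 1, 0.0787 without sub-SCI replicate 1 and 0.157 without sub-SCI replicate 3. Slc12a5, the chloride exporter KCC2, stood at 34.7, 47.4 and 11.5 CPM in sub-SCI and at 123, 49.4, 72.2 and 69.7 CPM in +PBS-4w (1.33 ± 0.392, adjusted p = 0.0163), and was the marker whose call held without +PBS-4w replicate 1 but not without sub-SCI replicate 3 (0.0928). Rbfox3, the nuclear marker NeuN, stood at 6.54, 9.9 and 3.32 CPM in sub-SCI and 18.9, 6.24, 11.9 and 12.6 CPM in +PBS-4w (adjusted p = 0.0696). On day 35 all 15 markers remained lower than in Intact, beside 23.9% of all genes. Their median log2 fold change against Intact was -1.86 on day 35 and -2.73 on day 7.

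Of 16 subunits of the receptors for GABA and glycine, which carry inhibition, 12 rose and 0 fell, beside 13.4% of all genes that rose. Their median log2 fold change was 1.19. Gabrg1, a GABA-A receptor subunit that glia also express, stood at 19.2, 18.2 and 10.4 CPM in sub-SCI and at 30.3, 39.8, 39.2 and 43.5 CPM in +PBS-4w (1.26 ± 0.252, adjusted p = 0.00104). Gabrb1, a beta subunit, stood at 2.96, 2.17 and 1.7 CPM in sub-SCI and 2.53, 5.4, 7.11 and 9.04 CPM in +PBS-4w (1.39 ± 0.334, adjusted p = 0.00417). Gabbr1, of the metabotropic GABA-B receptor, went from 326, 295 and 196 to 590.5, 362, 408 and 463 CPM (0.74 ± 0.179, adjusted p = 0.00436). Gabrg1 and Gabbr1 did not overlap between the groups, whereas Gabrb1 was low in +PBS-4w replicate 1. Glra1, the adult glycine receptor subunit, went from 6.71, 11.2 and 2.88 to 11.3, 16.5, 23.8 and 19.3 CPM (adjusted p = 0.00897, and 0.0612 without sub-SCI replicate 3). The number of members that rose was 9 without +PBS-4w replicate 1, 4 without sub-SCI replicate 3, and 1, Gabrg1, with edgeR on the 7 libraries alone. All 16 remained below Intact on day 35, beside 23.9% of all genes that were lower than in Intact.

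The counts of this paragraph are to be read beside the 13.4% of all genes that rose and the 11.6% that fell. Of 17 presynaptic vesicle genes, 8 rose and 0 fell. Vamp2, the vesicle fusion protein, stood at 128, 136 and 89.3 CPM in sub-SCI and at 254, 169.7, 172 and 166 CPM in +PBS-4w (0.69 ± 0.167, adjusted p = 0.00441), and the complexin Cplx2 at 18.7, 20.8 and 17.8 CPM in sub-SCI and 25.7, 29.7, 34.9 and 32.8 CPM in +PBS-4w (0.69 ± 0.167, adjusted p = 0.00454). Syt2, the calcium sensor of fast spinal synapses, went from 19.4, 27.1 and 6.34 to 71, 38.5, 46.6 and 43.7 CPM (1.50 ± 0.379, adjusted p = 0.00609), and the groups did not overlap in these 3. Of 14 ionotropic glutamate receptor subunits, 3 rose and 0 fell, among them Gria1, an AMPA receptor subunit, from 8.69, 7.29 and 4.51 to 12.9, 10.8, 17.4 and 16.8 CPM (1.08 ± 0.257, adjusted p = 0.00398). Of 16 genes that mark kinds of spinal neurons, 5 rose and 0 fell. The motor neuron genes Slc5a7, the choline transporter, and Chat, which makes acetylcholine, stood at 14.9, 15 and 3.53 and at 7.53, 6.67 and 1.9 CPM in sub-SCI and at 42, 33, 36.8 and 40.7 and at 20.4, 14.7, 14.6 and 18.2 CPM in +PBS-4w (1.77 ± 0.395 and 1.66 ± 0.422, adjusted p = 0.00244 and 0.00644). Slc6a5, the glycine transporter of inhibitory neurons, stood at 22.4, 44.3 and 6.68 CPM in sub-SCI and 147, 54, 72 and 43.8 CPM in +PBS-4w (adjusted p = 0.018), with its call lost without sub-SCI replicate 1 or 3 or +PBS-4w replicate 1 (0.0587, 0.091 and 0.0565). The members that rose numbered 6 of the presynaptic, 5 of the glutamate receptor and 2 of the spinal neuron list without +PBS-4w replicate 1, and 4, 1 and 2 without sub-SCI replicate 3. With edgeR on the 7 libraries alone, 1 member of each of the 3 lists rose. Of the 84 potassium channel genes (Kcn, by symbol, after their values were seen), 33 rose and 3 fell, 14 and 2 without sub-SCI replicate 3, and 9 and 1 with edgeR on the 7 libraries alone.

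Of 12 genes associated with axon regeneration, 4 fell and 0 rose, beside 11.6% of all genes that fell, and 2 fell with edgeR on the 7 libraries alone. Atf3, an injury-induced transcription factor, stood at 91.2, 74.3 and 79.7 CPM in sub-SCI and at 40.9, 31.8, 41.8 and 34 CPM in +PBS-4w (-1.14 ± 0.332, adjusted p = 0.0155, and 0.0506 without sub-SCI replicate 1), and Sprr1a, made by regenerating sensory neurons, at 2.73, 1.78 and 0.848 CPM in sub-SCI and 0.783, 0.0706, 0.224 and 0.413 CPM in +PBS-4w. Gap43, of growth cones, stood at 165, 109 and 91.3 CPM in sub-SCI and 139, 64.2, 67 and 101 CPM in +PBS-4w (-0.39 ± 0.263, adjusted p = 0.295). The call of Sprr1a (adjusted p = 0.0248) was lost without sub-SCI replicate 1 or +PBS-4w replicate 2 or 3 (0.109, 0.0667 and 0.0635).

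The next 2 lists are also to be read beside the 13.4% of all genes that rose and the 11.6% that fell. Of 15 growth and trophic factors and receptors, 5 rose and 1 fell, with 4 and 0 without sub-SCI replicate 3 and 3 and 0 with edgeR on the 7 libraries alone. Igf2, a growth factor made by meningeal and vascular cells, stood at 171, 99.6 and 127 CPM in sub-SCI and at 638, 1620.1, 1244 and 879 CPM in +PBS-4w (3.05 ± 0.737, adjusted p = 0.00448). Ntrk2, the receptor for BDNF, went from 365, 264 and 197 to 482, 634, 632 and 864 CPM (1.25 ± 0.224, adjusted p = 3.94e-04), and Cntf, a trophic factor of astrocytes and Schwann cells, from 24.9, 15 and 16.9 to 48.4, 40.4, 37.4 and 34.5 CPM (1.08 ± 0.224, adjusted p = 0.00131). The groups did not overlap in these 3. Bdnf itself stood at 1.95, 2.61 and 1.29 CPM in sub-SCI and 2.61, 1.34, 2.24 and 1.15 CPM in +PBS-4w (-0.09 ± 0.425, adjusted p = 0.909). Of 9 immediate early genes, 2 rose, Dusp1, a MAP kinase phosphatase, from 21, 22.5 and 23.6 to 92.1, 238, 164 and 61.8 CPM (2.63 ± 0.488, adjusted p = 5.25e-04), and the nuclear receptor Nr4a1 from 22.3, 17.7 and 21.6 to 32.7, 75.7, 65.9 and 53.5 CPM (adjusted p = 0.0135, and 0.0539 without sub-SCI replicate 2). Fos, by contrast, held 31.7, 29 and 26.9 CPM in sub-SCI and 21, 70.5, 27.3 and 29.3 CPM in +PBS-4w (adjusted p = 0.471).

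Of 13 Schwann cell genes, 7 rose and 1 fell, beside 13.4% and 11.6% of all genes, with a median log2 fold change of 1.53. Drp2, a dystrophin-related protein of Schwann cell membranes, stood at 49.1, 48.8 and 83 CPM in sub-SCI and at 95.8, 242, 212 and 133 CPM in +PBS-4w (1.50 ± 0.304, adjusted p = 0.00115), and Cdh19, a cadherin of Schwann cell precursors, at 7.41, 11.5 and 13 CPM in sub-SCI and 21.4, 44.1, 35.4 and 22.2 CPM in +PBS-4w (1.53 ± 0.357, adjusted p = 0.0034). Pmp22, a peripheral myelin protein, went from 204, 177 and 266 to 471, 928, 781 and 579 CPM (1.68 ± 0.493, adjusted p = 0.0161, and 0.0519 and 0.0632 without sub-SCI replicate 1 or 2). Prx, the periaxin of myelinating Schwann cells, stood at 22.4, 23.6 and 66.3 CPM in sub-SCI and 116, 356, 264 and 187 CPM in +PBS-4w (2.63 ± 0.917, adjusted p = 0.0401), a call lost on leaving out any library but +PBS-4w replicate 1, with adjusted p of 0.05 to 0.128. The one that fell, Ngfr, is the low-affinity neurotrophin receptor of immature Schwann cells, at 53.2, 62.3 and 107 CPM in sub-SCI and 14.2, 38.4, 25.8 and 44.5 CPM in +PBS-4w (adjusted p = 0.0479), a call lost without sub-SCI replicate 2 or 3 or without +PBS-4w replicate 1, 2 or 3, with adjusted p of 0.0542 to 0.246. In +PBS-4w the mean log2 CPM of the list was 5.35 in replicate 1 and 5.98 to 6.68 in the others, against 4.37 to 5.23 in sub-SCI.

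Of 14 oligodendrocyte markers, 2 rose and 0 fell, a share near the 13.4% of all genes that rose. Only 1 rose without sub-SCI replicate 3 or with edgeR on the 7 libraries alone. The other lists of this paragraph are likewise to be read beside that 13.4% and the 11.6% of all genes that fell. Aspa, an enzyme of acetate supply for myelin lipids, stood at 58.9, 53.5 and 50.4 CPM in sub-SCI and at 102, 123, 177 and 88 CPM in +PBS-4w (1.17 ± 0.183, adjusted p = 1.02e-04), and Opalin, of myelinating oligodendrocytes, at 41.8, 83.2 and 34.9 CPM in sub-SCI and 165, 125, 107 and 99.1 CPM in +PBS-4w (1.22 ± 0.324, adjusted p = 0.00872, and 0.0666 without sub-SCI replicate 3). Mbp stood at 21991, 14012 and 10679 CPM in sub-SCI and 16065, 8695, 9646 and 11713 CPM in +PBS-4w (-0.43 ± 0.277, adjusted p = 0.269). Of 10 oligodendrocyte precursor and differentiation genes, 1 rose and 2 fell, and 0 rose without sub-SCI replicate 3, without +PBS-4w replicate 1 or with edgeR on the 7 libraries alone. Nkx2-2, a transcription factor of differentiating precursors, fell from 42.3, 32.5 and 22.3 to 17.8, 13.1, 10.4 and 18.5 CPM (-1.12 ± 0.261, adjusted p = 0.00355). Of 22 cholesterol synthesis genes, 2 rose, the regulators Srebf2 (0.44 ± 0.106) and Insig1 (0.69 ± 0.193), and 0 fell (adjusted p = 0.00475 and 0.0119, the latter 0.0697 without sub-SCI replicate 3), while 1 fell without +PBS-4w replicate 1 and none passed with edgeR on the 7 libraries alone. On day 35 all 22 were below Intact, beside 23.9% of all genes that were lower than in Intact. Their median log2 fold change against Intact was -1.79 on day 35 and -1.83 on day 7. Of 16 nuclear respiratory chain genes, 2 rose and 1 fell, with a median of 0.05, with 2 and 6 without +PBS-4w replicate 1, 2 and 0 without sub-SCI replicate 3, and 0 and 0 with edgeR on the 7 libraries alone.

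By the same rule, the higher DEGs with the largest folds were Ifit1, Ptgds, Coch, Slc5a5 and Esrp1. Ptgds, the prostaglandin D synthase that meninges and oligodendrocytes make, stood at 539, 297 and 388 CPM in sub-SCI and at 4547, 11418, 10515 and 8394 CPM in +PBS-4w (4.42 ± 0.617, adjusted p = 3.37e-05), and varied in Intact too (1739 ± 932 CPM, n = 4). Coch, the matrix protein cochlin, stood at 5, 4.02 and 7.26 CPM in sub-SCI and 28.5, 235, 120.5 and 55.1 CPM in +PBS-4w (4.34 ± 0.992, adjusted p = 0.00298), and Slc5a5, the sodium iodide symporter, at 0.552, 0.254 and 0.271 CPM in sub-SCI and 2.79, 7.59, 22.6 and 6.88 CPM in +PBS-4w (4.75 ± 0.971, adjusted p = 0.00122). Esrp1, an epithelial splicing factor, was near 0 in sub-SCI (0.0291, 0 and 0.136 CPM) and at 0.894, 0.635, 1.97 and 1.97 CPM in +PBS-4w (adjusted p = 9.72e-04). In Ptgds, Coch, Slc5a5 and Esrp1 every +PBS-4w library exceeded every sub-SCI library, although the +PBS-4w libraries differed among themselves several fold. Markers of neighboring tissues were looked at beside these, and are to be read beside the 13.4% of all genes that rose and the 11.6% that fell. Of 7 skeletal muscle markers 1 rose (2 without +PBS-4w replicate 1 and 0 without sub-SCI replicate 3), and their mean log2 CPM was 4.88 in +PBS-4w replicate 2 against 0.69 to 1.77 in the other +PBS-4w libraries and 0.80 to 0.91 in sub-SCI. In that library Acta1, skeletal actin, held 103 CPM and Mb, myoglobin, 44 CPM. Of 6 dorsal root ganglion, 6 bone and cartilage, 4 red cell and 2 adipocyte markers tested, 1, 1, 0 and 0 rose and none fell (2 ganglion markers rose and 1 red cell marker fell without +PBS-4w replicate 1), and Hbb, hemoglobin beta, ranged from 8.99 to 388 CPM over the 7 libraries. The part of such tissue in the results was not tested.

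The steps between day 7 and day 35 were set side by side, all against the same sub-SCI libraries. DEGs numbered 9 higher and 19 lower in +PBS-1w (0.05% and 0.106% of genes), 600 and 378 in +PBS-2w (3.34% and 2.1%) and 770 and 555 in +PBS-4w. Between +PBS-1w and +PBS-4w, 1 gene (0.00556%) was a DEG higher in +PBS-4w and 6 (0.0334%) were lower, and 141 (0.784%) were higher and 183 (1.02%) lower at an adjusted p under 0.05. The mean of Mki67 was 123 ± 45.5 CPM (SD) in sub-SCI, 48.6 ± 13.8 in +PBS-1w, 26.6 ± 6.54 in +PBS-2w and 17.6 ± 5.73 in +PBS-4w, against 11.1 ± 7.82 in Intact. For Hmox1 the means in the same order were 600.0 ± 124, 197 ± 76.7, 85.3 ± 26.9, 80.3 ± 16.4 and 15.8 ± 2.52 CPM. At 1 week the difference from sub-SCI passed for Hmox1 (adjusted p = 0.00584) and not for Mki67 (0.0731). Cd8a had 168 ± 9.89 CPM in sub-SCI, 94.6 ± 51.5 in +PBS-1w, 23.1 ± 15.1 in +PBS-2w and 15.1 ± 6.21 in +PBS-4w. Of the rising genes, Dnah12 had 31.8 ± 9.31, 97.8 ± 24.6, 214 ± 43.9 and 164 ± 59.2 CPM, and Ptgds 408 ± 123, 2592 ± 2512, 4750.4 ± 151 and 8719 ± 3056 CPM. Of the cell division list, 16 members were lower than in sub-SCI in +PBS-1w, 28 in +PBS-2w and 29 in +PBS-4w, where 1.51%, 8.52% and 11.6% of all genes were lower. Of the ependymal list, 3, 8 and 8 were higher, and of the astrocyte homeostasis list 1, 11 and 9, where 1.33%, 9.99% and 13.4% of all genes were higher.

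**Figure D4:**
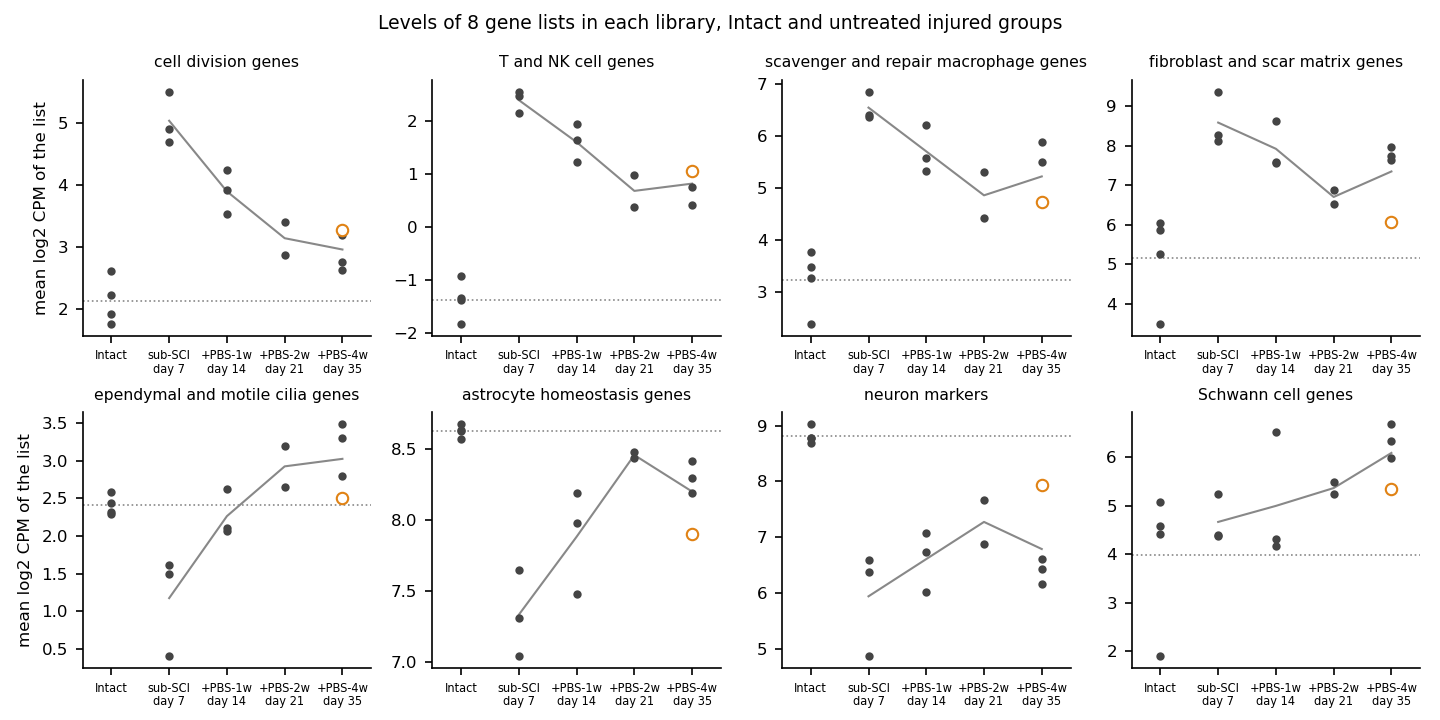
Mean log2 CPM of 8 gene lists (vertical axis) in each library of Intact, sub-SCI, +PBS-1w, +PBS-2w and +PBS-4w (horizontal axis). Points are libraries, gray lines join the group means of the injured groups, dotted lines mark the Intact mean, and open circles mark +PBS-4w replicate 1, which stands above the other +PBS-4w libraries for neuron markers (7.94 against 6.17 to 6.61) and below them for scar matrix genes (6.06 against 7.64 to 7.96).

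Many genes still differed from Intact on day 35. Against Intact, 2395 genes (13.3%) were DEGs higher and 1923 (10.7%) lower in +PBS-4w, and 2981 (16.6%) and 3151 (17.5%) were higher and lower in sub-SCI. By list, the medians against Intact on day 35 and day 7 were 0.85 and 3.16 for cell division genes, 2.06 and 4.02 for T and NK cell genes, 3.15 and 3.85 for phagocytic macrophage genes, 2.32 and 3.22 for scar matrix genes and 3.01 and 2.93 for complement genes. They were 0.94 and -1.33 for ependymal and motile cilia genes, -0.18 and -1.33 for astrocyte homeostasis genes, 1.80 and -0.24 for Schwann cell genes, -1.86 and -2.73 for neuron markers and -1.03 and -1.24 for oligodendrocyte markers. In all of these lists but complement and Schwann cell genes, the median lay nearer to 0 on day 35 than on day 7. These are only a part of the lists, and the others went both ways. The median lay nearer to 0 on day 35 for lysosomal (1.95 and 2.74) and cytokine genes (1.14 and 2.95). It lay farther for interferon-stimulated (2.19 and 1.97), MHC class II (2.11 and 2.02) and immediate early genes (1.86 and 1.55). At adjusted p under 0.05, 30.5% of all genes were higher and 30.9% lower than Intact on day 7, and 28.6% and 23.9% on day 35. Of the ependymal list, 7 of 10 members were lower than Intact on day 7 and 7 were higher on day 35. Of the 13 Schwann cell genes, 3 were higher and 1 was lower than Intact on day 7, and 9 were higher and 0 lower on day 35. The Intact libraries were uneven for these, the list summing to 281 CPM in replicate 1 and to 1004 to 1877 CPM in the others.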

How the data were processed

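Poly(A) RNA of 26 rat spinal cord segments was sequenced as 150 bp read pairs. The authors trimmed reads with Trim Galore 0.5.0, removed those that aligned to the human genome, aligned the rest to Rnor6 with HISAT2 2.1.0, kept proper pairs with SAMtools 1.9 and deposited raw counts per gene from featureCounts 1.6.4. The annotation release and the strand setting are not given in the sources used here. The library tables equalled the joint count table in all 26 libraries.

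The 7 libraries compared held 21327390 to 35403139 counts. All 26 libraries in 8 groups were fitted with edgeR 4.0.16 (R 4.3.3; filterByExpr, TMM, quasi-likelihood F test, Benjamini-Hochberg over 17990 genes), with no covariate, and the contrast +PBS-4w minus sub-SCI was taken. The standard error is the absolute log2 fold change divided by the square root of F. The study's thresholds define DEGs. DESeq2 1.42.0, other scalings, filters, covariates and libraries left out were alternatives. The fit was tested on simulated data that had the same spread in every group. The +PBS-4w libraries varied more than the other groups, so that test does not cover the effect of their spread.

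The 42 gene lists (606 genes, 587 found, 2 of them by a synonym, 566 tested) and the comparison itself were chosen with earlier results of these data known. Named were 12 DEGs in each direction by smallest p, 5 in each direction by largest fold (own symbol, group mean of at least 1 CPM), and list members, mostly up to 6 per list with the smallest p. Dnah, Cfap, Rsph, Ift, Cenp, Ncap, Kcn and Col families were chosen after their values were seen. Promoters are from RefSeq (GRCr8), matched by symbol. Some genes named by these rules are not reported here.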

Additional observations from a re-analysis of the deposited data

Results flagged for a closer look

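In each named gene and list, the 4 +PBS-4w libraries were checked for one that lay far from the other 3 (Dixon's test at 95%). Of 212 checks, 17 passed, and chance alone gives about 1 in 20. In 12 of the 17 the library apart was replicate 1. In that library, fibroblast and scar matrix genes averaged 6.06 log2 CPM against 7.64 to 7.96 in the others, basement membrane genes 5.56 against 7.37 to 7.72, and nuclear respiratory chain genes 7.74 against 6.87 to 6.99. Among neuronal genes it was the highest library for Nefl (1745 CPM against 505 to 664) and Vamp2 (254 against 166 to 172). Aurkb, the mitotic kinase, was at 82.9 CPM in it against 12.6 to 13.6, Hp, haptoglobin, at 9.87 against 3.49 to 4.3, and Timp4, the metalloprotease inhibitor, at 55.9 against 35.2 to 36.1. It was the lowest library for Col4a2 (47.8 CPM against 135 to 149), Vim (2274 against 3244 to 3427), Dnah11, a dynein heavy chain (16.8 against 51.8 to 54), and Ccl7 (1.53 against 1.8 to 1.84).

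Replicate 2 stood apart in the skeletal muscle genes Acta1 (103 CPM against 1.66 to 9.28) and Mb (44.0 against 0.0918 to 0.559) and in the immediate early gene Fos (70.5 against 21 to 29.3). Ckap4 was lowest in replicate 3 (31.1 CPM against 38.6 to 39.1), and Timp1 was highest in replicate 4 (114 against 102 to 104).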

How the results depend on the processing

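With edgeR on the 7 libraries alone, the counts were 51 higher and 184 lower DEGs, and 716 higher and 960 lower genes at adjusted p under 0.05. Of those 51 and 184 DEGs, 49 and 179 were also DEGs with all libraries in the model. Leaving out each of the 7 libraries in turn gave 354 to 1007 higher and 361 to 593 lower DEGs, and 1392 to 3232 higher and 1288 to 3012 lower genes at adjusted p under 0.05, lowest each time without sub-SCI replicate 3 and highest without +PBS-4w replicate 1. Without the replicate 1 libraries of all groups, 3374 genes were lower at adjusted p under 0.05. The other settings kept each of the 4 counts within 1.5 times of its value. No called gene among the 204 checked changed direction in any setting, and 92 lost the call in at least 1. Of the genes in the text, Chat, Dnah11, Gabbr1, Gabrb1, Gria1, Hydin, Rsph1, Slc4a4, Spp1, Syt2, Timp3 and Vamp2 lost it with edgeR on the 7 libraries alone and nowhere else (adjusted p = 0.0539 to 0.144), and Srebf2 also with DESeq2 on these libraries (0.0582). The causes were not tested.

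Replicate numbers are shared by the groups' labels. The deviations of same-numbered libraries from their group means correlated at 0.232, -0.164 and 0.191, and sub-SCI replicates 2 and 3 correlated best with another number (0.204 and 0.294), so the numbers were not taken to pair the libraries. With the replicate block there were 741 higher and 587 lower DEGs, and 2516 higher and 2293 lower genes at adjusted p under 0.05.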
